A study of Mus musculus with 31 samples.

Results

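The genes described here encode the proteins that dock, prime and fuse vesicles, or that sit on the synaptic vesicle itself. They were chosen by symbol alone, as the probes whose single annotated gene was a numbered synaptotagmin, syntaxin, syntaxin-binding protein, Vamp, complexin, Rims or synaptogyrin, Snap23, Snap25, Snap29, Snap47 or Snap91, a synapsin, an Sv2 gene or Syp. This gave 60 of 15096 named genes and 66 of 16874 named probes, with 54 genes on 1 probe and 6 genes (Rims1, Stxbp5, Syt6, Syt11, Vamp1 and Vamp5) on 2 probes each. Whole-brain RNA from 31 BXD/TyJ recombinant inbred strains, which derive from crosses between C57BL/6J and DBA/2J mice, was compared on 2-colour glass arrays with whole-brain RNA of the parent strain C57BL/6J. All animals were males of 8 weeks with no treatment named, and RNA of 3 animals was mixed for each strain. Each strain had 1 array, with the strain in Alexa Fluor 647, the C57BL/6J reference in Alexa Fluor 555 and no dye swap. The labels divide the strains only by number, into 24 earlier strains (BXD1 to BXD32) and 7 later strains (BXD33 to BXD42).

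Vesicle fusion is driven by SNARE proteins, which zip together across 2 membranes: at the synapse a vesicle SNARE (Vamp) pairs with a syntaxin and a SNAP protein of the plasma membrane. Sec1/Munc18 proteins hold and hand over syntaxins, complexins clamp and then promote the assembled complex, and synaptotagmins sense calcium and trigger release. RIM proteins place vesicles at the active zone, synapsins tether the reserve pool, and related SNAREs serve the Golgi, endosomes, lysosomes and autophagosomes in every cell.

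Each value below is a log2 ratio of a strain to C57BL/6J. Neither the direction nor the log base of the deposited ratios was stated. Strain over reference is likely from the order of the channels, the dyes and the titles, and every sign would turn in the other direction. A ratio holds no level, so whether a gene was expressed in brain, and whether neuronal markers were present, could not be read from these data. In bulk RNA, fewer cells of a type and less RNA per cell cannot be told apart, and with 1 array of 1 pool per strain, strain and array cannot be told apart.

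The arrays stood in sets that the labels do not name. On 2 principal components with 28.7% and 11.9% of the variance, a first outlying set (BXD38, BXD36, BXD28, BXD23, BXD20, BXD8 and BXD6) scored above 0.2 on the first. A second outlying set (BXD42, BXD40, BXD39, BXD34, BXD33, BXD27, BXD22 and BXD15) did so on the second. The other 16 arrays, called the core set, were all of earlier strains. All 31 columns held the same sorted values (median 0.01, SD 0.60). Named probes at the last place of each run of 8 consecutive probe numbers, called the eighth place, averaged −0.54 (n = 1951 probes), while the means of the remaining places lay from −0.01 to 0.08. Of the 66 probes described here 8 lay there: those of Stx4a, Stx7, Stx8, Stxbp2, Stxbp3 and Syngr2 and 1 of the 2 probes of Stxbp5 and of Vamp1.

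The first comparison asked whether the mean log2 ratio over the 31 strains differed from 0, that is, whether the strains as a whole differed from C57BL/6J. By limma's moderated test with Benjamini-Hochberg adjustment over all 21262 features, 51 of the 60 genes passed at an adjusted p of 0.05, against 76.1% of all features, and 25 were positive and 26 negative. Among all features 42.1% were positive and 33.9% negative, and the share passing was thus near that of the array as a whole. The median of the 60 means was −0.00406, and that of all features 0.0385. Negative means reached further than positive ones: when the test asked for more than a 1.2-fold change, 19 genes passed, of which 5 were positive and 14 negative, with 27.9% of all features passing (12.4% positive, 15.6% negative). All 8 genes with an eighth-place probe were negative. Without those probes 44 of 54 genes passed, 25 positive and 19 negative, against 74.5% of features (46.7% positive, 27.8% negative). In the 16 core arrays alone 48 passed, 22 positive and 26 negative, against 76.1% of features (40.9% positive, 35.2% negative). By an exact sign test over the strains 47 passed, 22 positive and 25 negative, against 73% of features (39.2% positive, 33.9% negative). The reference stands for 1 control sample, so the spread of C57BL/6J itself is left out of the test, and a constant bias of the dyes or of a spot would count as a difference. The p-values measure only the spread between these arrays.

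The sign was the same on every array for 7 genes, against 10.2% of all features. Syt8 was above 0 on all 31 arrays, as were 3.38% of features. Stx4a, Snap23, Stx8, Vamp8, Syt10 and Syt13 were below 0 on all of them, as were 6.79% of features. These 6 negative genes serve different places: Stx4a and Snap23 pair at the plasma membrane of many cell types, Stx8 and Vamp8 act together in late endosomes, and Syt10 and Syt13 are synaptotagmins. Of the 6, Stx4a and Stx8 had their probe at the eighth place, and whether the place had a part in these values was not tested.

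**Figure D1:**
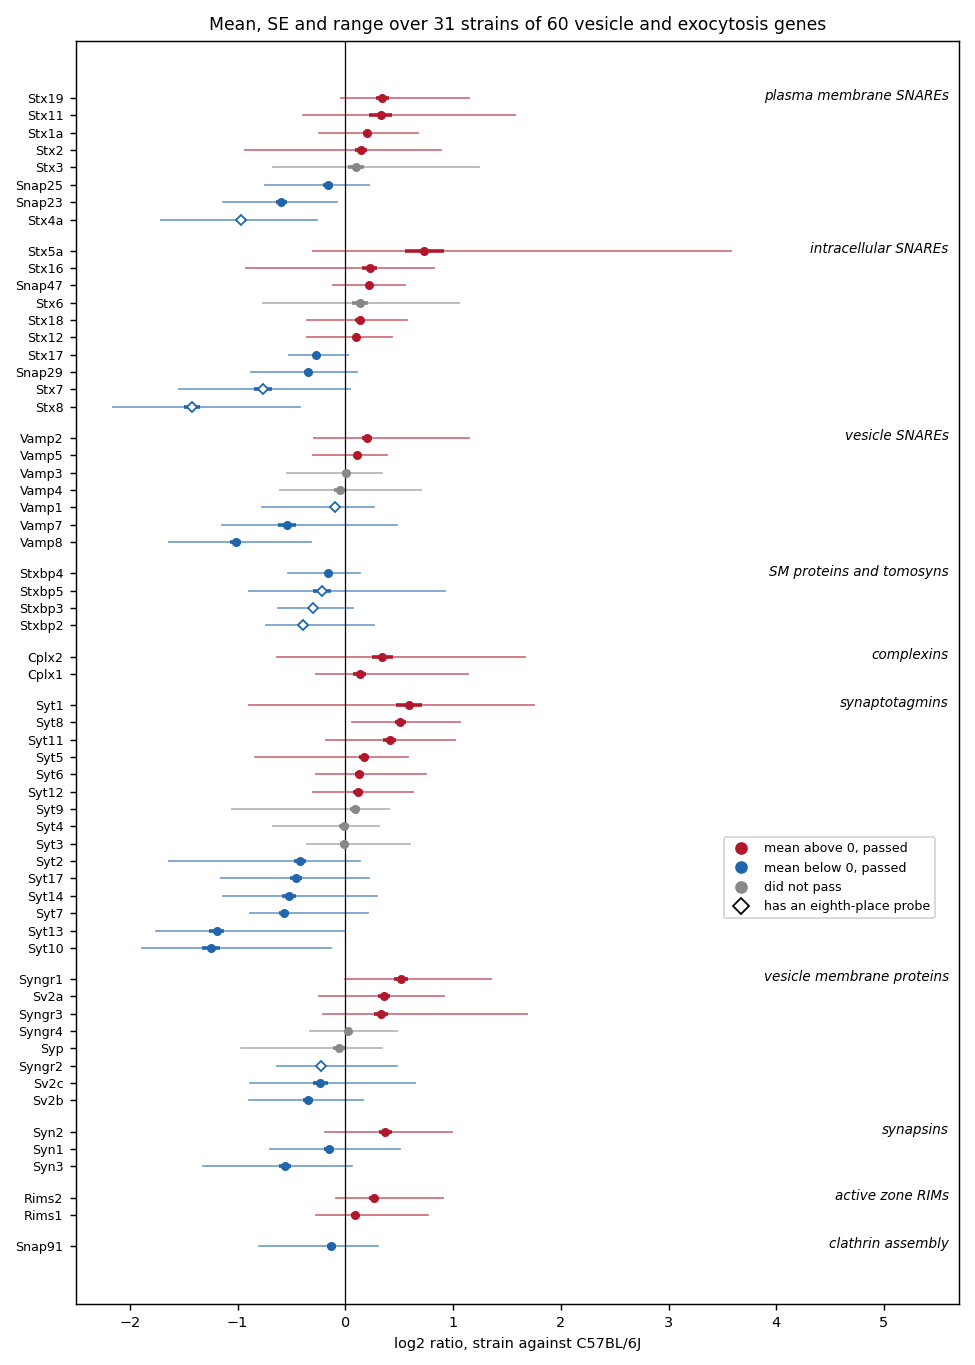
Mean log2 ratio of strain to C57BL/6J (horizontal axis) for each of the 60 genes, by role; points are means over 31 strains, thick bars the SE and thin lines the lowest to highest strain. Red and blue points passed limma's test above and below 0, grey points did not, and open diamonds mark genes with a probe at the eighth place, all of which lie below 0.

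Among the 8 SNAREs of the plasma membrane, 4 had a positive mean, 3 a negative one and 1 did not pass. Stx4a, which works in constitutive and insulin-regulated exocytosis, ranged from −1.71 in BXD32 over a median of −0.98 to −0.26 in BXD19. Its mean was −0.97 ± 0.05 (SE, n = 31; limma adjusted p = 7.03e-18), a 1.96-fold difference with no strain at or above 0. Snap23, the relative of Snap25 found in most tissues, ran from −1.13 in BXD32 to −0.08 in BXD36 with a median of −0.63 and a mean of −0.59 ± 0.05 (limma adjusted p = 1.63e-12). Snap23 was higher in every array of the first outlying set (−0.33 to −0.08) than in any core array (−1.13 to −0.41). The second outlying set (−0.73 to −0.33) overlapped the core, and all strains were below 0. Snap25, the neuronal partner of Stx1a, had a mean of −0.16 ± 0.05 with 22 strains below 0 and 9 above. In the 16 core arrays its mean was −0.09 and no longer passed (limma adjusted p = 0.103).

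The positive plasma membrane SNAREs were Stx19, Stx11, Stx1a and Stx2. Stx19, a syntaxin without a transmembrane segment, ran from −0.04 in BXD27 over a median of 0.25 to 1.15 in BXD19, and its mean was 0.34 ± 0.06 (limma adjusted p = 3.6e-06). Stx11, known for granule release in cytotoxic lymphocytes, had a lowest strain of −0.39 (BXD40), a median of 0.14, a highest strain of 1.57 (BXD19) and a mean of 0.33 ± 0.11 (limma adjusted p = 0.00487). The mean of Stx11 rested on the core arrays: it was 0.68 there, 0.20 in the first outlying set and −0.27 in the second, where all 8 arrays were below 0. By the exact sign test, which counts 20 strains above 0 and 11 below, Stx11 did not pass (adjusted p = 0.182). Stx1a, the syntaxin of fast synaptic release, was positive in 28 of 31 strains with a mean of 0.20 ± 0.04. Stx2 had a mean of 0.15 ± 0.06 between −0.93 in BXD32 and 0.89 in BXD11, and did not pass in the core arrays (mean 0.16, limma adjusted p = 0.139) or without the second outlying set (mean 0.12, limma adjusted p = 0.134). Stx3, a syntaxin of apical membranes and of ribbon synapses, had a mean of 0.10 ± 0.07 and did not pass (limma adjusted p = 0.192). Its arrays lay from −0.67 to 0.46 in the first outlying set and from 0.07 to 1.24 in the second. The mean was 0.21 and passed without the first set (limma adjusted p = 0.00576), and it was −0.03 without the second (limma adjusted p = 0.695). Without BXD22, its highest strain, it was 0.06 (limma adjusted p = 0.367).

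Of the 10 SNAREs of inner membranes, 5 were positive, 4 negative and 1 did not pass. Stx8, a SNARE of late endosomes, had the lowest mean of all 60 genes. It ran from −2.16 in BXD39 over a median of −1.38 to −0.42 in BXD32, and its mean was −1.42 ± 0.07 (limma adjusted p = 2.56e-18), a 2.68-fold difference. Stx7, its partner in the same endosomal complex, ran from −1.54 in BXD40 over −0.75 to 0.05 in BXD21, with a mean of −0.76 ± 0.08 (limma adjusted p = 3.76e-10). Both probes lay at the eighth place. Stx7 was above 0 in 2 strains, BXD21 and BXD36, and Stx8 in none. Snap29 and Stx17, which join in the fusion of autophagosomes with lysosomes, were both negative, at −0.35 ± 0.04 and −0.27 ± 0.03, with 28 and 30 strains below 0.

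Stx5a, the syntaxin of transport from the endoplasmic reticulum to the Golgi, had both the highest mean and the largest spread of the 60 genes. Its lowest strain was BXD32 at −0.30, its median 0.49 and its highest strain BXD27 at 3.58, and the mean was 0.73 ± 0.18 (limma adjusted p = 0.000222). The SD over strains was 0.990, at the 98.5th percentile of all features. The high values lay outside the core set: core arrays ran from −0.30 to 0.85, and BXD6, BXD23 and BXD28 of the first outlying set lay between 2.58 and 2.61. In the core arrays alone the mean was 0.14 and did not pass (limma adjusted p = 0.111).

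The other inner-membrane SNAREs were nearer to 0. Stx16, a syntaxin of the trans-Golgi network, ran from −0.92 in BXD36 over 0.35 to 0.82 in BXD27, with a mean of 0.23 ± 0.07 (limma adjusted p = 0.00316). For Stx16 all 7 arrays of the first outlying set were below 0 (mean −0.35) and all 8 of the second above (mean 0.54). Without the second set its mean was 0.12 and did not pass (limma adjusted p = 0.168). Snap47, a SNAP protein of inner membranes, was positive in 29 strains at 0.22 ± 0.03. Stx18 of the endoplasmic reticulum and Stx12 of recycling endosomes had means of 0.13 and 0.10. Without the second outlying set neither passed (Stx18 0.05, limma adjusted p = 0.264; Stx12 0.08, limma adjusted p = 0.0896), and Stx12 did not pass the exact sign test (adjusted p = 0.0908). Stx6, of the trans-Golgi network and endosomes, had a mean of 0.14 ± 0.08 over all strains and did not pass (limma adjusted p = 0.082). It passed in the core arrays with a mean of 0.40 (limma adjusted p = 6.99e-05), and 8 of 8 arrays of the second outlying set were below 0. It also passed when BXD22, BXD27, BXD34, BXD39 or BXD42 was left out, with means of 0.16 to 0.17, and by the exact sign test (adjusted p = 0.0403).

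Of the 7 vesicle SNAREs, 2 were positive, 3 negative and 2 did not pass, and the synaptic Vamp1 and Vamp2 were closer to 0 than Vamp7 and Vamp8. Vamp8, which acts in endosomes and in granule release, ran from −1.64 in BXD29 over −0.99 to −0.32 in BXD20, and its mean was −1.02 ± 0.05 (limma adjusted p = 5.53e-18), a 2.02-fold difference. Vamp7, a SNARE of lysosomes and of neurite outgrowth, ran from −1.14 in BXD31 over −0.68 to 0.48 in BXD20, with a mean of −0.54 ± 0.08 (limma adjusted p = 2.59e-07). Vamp8 was below 0 throughout, whereas Vamp7 was near 0 in the first outlying set (mean 0.09) and low in the second (−0.83). Vamp2, the main vesicle SNARE of forebrain synapses, ran from −0.29 in BXD19 over 0.21 to 1.15 in BXD11, and its mean was 0.20 ± 0.05 (limma adjusted p = 0.000297). In the core arrays its mean was 0.13 and did not pass (limma adjusted p = 0.16). Vamp1, which serves synapses of spinal cord and brainstem, had a mean of −0.09 ± 0.04 that passed over all arrays (limma adjusted p = 0.0274). It passed neither in the core arrays (−0.07, limma adjusted p = 0.172), nor without the first outlying set (−0.05, limma adjusted p = 0.201), nor with its eighth-place probe left out (−0.09, limma adjusted p = 0.134), nor by the exact sign test (adjusted p = 0.0908). Vamp5, a relative known from muscle, was at 0.11 ± 0.03 (limma adjusted p = 0.000919) between −0.30 and 0.39. Vamp3 and Vamp4, of recycling endosomes and the trans-Golgi network, had means of 0.01 and −0.05 and did not pass (limma adjusted p = 0.889 and 0.354). Vamp4 passed in the core arrays with a mean of −0.21 (limma adjusted p = 0.00255).

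All 4 syntaxin-binding proteins were negative. Stxbp2 and Stxbp3 are Sec1/Munc18 proteins for Stx11 and for Stx4a, Stxbp4 binds Stx4a, and Stxbp5, or tomosyn, competes with Vamp2 for the plasma membrane SNAREs. Stxbp2 ran from −0.74 in BXD18 over −0.48 to 0.26 in BXD23, with a mean of −0.39 ± 0.05 (limma adjusted p = 9.32e-09). Stxbp3 ran from −0.62 in BXD31 over −0.29 to 0.07 in BXD28, with a mean of −0.30 ± 0.03 (limma adjusted p = 9.3e-10). The probes of both lay at the eighth place. Over the 31 arrays, which both sides share, the correlation of a probe with the mean of all named eighth-place probes was 0.706 for Stxbp3 and 0.527 for Stxbp2. Among the other eighth-place probes it was 0.643 for Stxbp5, 0.410 for Syngr2, 0.332 for Stx7, 0.199 for Stx8, −0.30 for Stx4a and −0.55 for Vamp1. Within array sets the order changed: 0.627 for Stxbp3, 0.589 for Stx8, 0.445 for Stxbp2 and 0.243 for Syngr2. There Stxbp5 had 0.139, Stx7 0.127, Vamp1 −0.22 and Stx4a −0.47. The 8 eighth-place probes thus did not follow that mean alike. Stxbp4, with no probe there, had a mean of −0.16 ± 0.03 (limma adjusted p = 1.34e-05) between −0.54 and 0.14. Stxbp5 ran from −0.90 in BXD29 over −0.34 to 0.92 in BXD20, and its mean was −0.22 ± 0.08 (limma adjusted p = 0.0147). All 7 arrays of the first outlying set were above 0 for Stxbp5 (0.08 to 0.92) and all 16 core arrays below (mean −0.50), so the mean over strains averaged 2 opposite signs. Without the second outlying set the mean was −0.20 and did not pass (limma adjusted p = 0.0973).

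Both complexins were positive over all strains, with opposite signs in the array sets. Cplx2, the complexin of most forebrain excitatory synapses, ran from −0.64 in BXD20 over 0.47 to 1.67 in BXD11, with a mean of 0.34 ± 0.09 (limma adjusted p = 0.000866). Its mean was 0.59 in the core set, 0.46 in the second outlying set and −0.36 in the first, where only BXD28 was above 0. Cplx1, its close relative, ran from −0.27 in BXD6 over 0.07 to 1.14 in BXD11, with a mean of 0.13 ± 0.06 (limma adjusted p = 0.0401). The 7 arrays of the first outlying set lay from −0.27 to −0.04 for Cplx1. The call for Cplx1 was lost when any one of BXD2, BXD5, BXD9, BXD11, BXD12, BXD13, BXD14, BXD18, BXD19, BXD24 or BXD31 was left out, with means of 0.10 to 0.13 and limma adjusted p from 0.0507 to 0.0783. It was also lost with arrays centred on their median (0.12, limma adjusted p = 0.0627) and by the exact sign test (adjusted p = 0.752).

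Of the 15 synaptotagmins, 6 were positive, 6 negative and 3 did not pass. Syt1, the calcium sensor of fast release in forebrain neurons, ran from −0.90 in BXD6 over 0.66 to 1.75 in BXD32, with a mean of 0.59 ± 0.12 (limma adjusted p = 2.97e-05). All 16 core arrays lay between 0.39 and 1.75 and all 8 arrays of the second outlying set between 0.01 and 1.09. In the first outlying set BXD6, BXD8, BXD20, BXD23 and BXD28 lay between −0.90 and −0.23 and BXD36 and BXD38 at 0.55 and 0.62. Syt2, the fast sensor of hindbrain and spinal synapses, had the opposite sign, at −0.42 ± 0.06 (limma adjusted p = 4.61e-08), with 30 strains below 0 and BXD32 lowest at −1.64.

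Syt8, grouped with the synaptotagmins that do not bind calcium, ran from 0.06 in BXD16 over 0.45 to 1.06 in BXD23, with a mean of 0.51 ± 0.05 (limma adjusted p = 3.73e-11). Syt10 and Syt13 were the lowest of the family. Syt10, a calcium sensor for the release of insulin-like growth factor in olfactory bulb neurons, ran from −1.89 in BXD11 over −1.46 to −0.13 in BXD12, with a mean of −1.24 ± 0.08 (limma adjusted p = 2.1e-15), a 2.37-fold difference. Syt13, which lacks calcium-binding residues, ran from −1.75 in BXD31 over −1.28 to just below 0 in BXD36, and its mean was −1.2 ± 0.07 (limma adjusted p = 2.74e-16). For Syt13 all arrays of the first outlying set (from −0.88 upward) lay above all core arrays (−1.75 to −1.0). Neither probe lay at the eighth place.

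The remaining negative synaptotagmins were Syt7, a slow sensor of asynchronous release, at −0.57 ± 0.04, Syt14 at −0.52 ± 0.06 and Syt17 at −0.45 ± 0.06, each below 0 in 29 strains. Syt11, which does not bind calcium, had a mean of 0.41 ± 0.06 with 28 strains above 0. Syt5, Syt6 and Syt12 were positive at 0.17, 0.13 and 0.12. Syt12 passed neither in the core arrays (0.04, limma adjusted p = 0.608), nor without the first (0.10, limma adjusted p = 0.0663) or the second outlying set (0.08, limma adjusted p = 0.224), nor by the exact sign test (adjusted p = 0.323). Syt3, Syt4 and Syt9 did not pass, with means of −0.02, −0.01 and 0.09. Syt9, a further sensor of fast release, was above 0 in 26 of 31 strains, and BXD38 was at −1.05. Without BXD38 the mean of Syt9 was 0.13 and passed (limma adjusted p = 0.000793), as it did by the exact sign test (adjusted p = 0.000382) and in the core arrays (0.16, limma adjusted p = 0.000993).

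Among the 8 proteins of the vesicle membrane, 3 were positive, 3 negative and 2 did not pass, and the 3 Sv2 genes differed in sign. Sv2a, the target of the antiepileptic drug levetiracetam, ran from −0.25 in BXD8 over 0.34 to 0.92 in BXD40, with a mean of 0.36 ± 0.05 (limma adjusted p = 3.28e-07). Sv2b ran from −0.90 in BXD6 over −0.28 to 0.16 in BXD32, with a mean of −0.35 ± 0.04 (limma adjusted p = 1.33e-08). Sv2c ran from −0.88 in BXD31 over −0.33 to 0.65 in BXD20, with a mean of −0.23 ± 0.07 (limma adjusted p = 0.00196). Sv2b was below 0 in 30 of 31 strains, while Sv2c averaged −0.49 in the core set and 0.17 in the first outlying set. Syngr1, a tetraspan vesicle protein of neurons, ran from −0.01 in BXD27 over 0.43 to 1.36 in BXD6, with a mean of 0.52 ± 0.06 (limma adjusted p = 3.25e-09). Its 30 positive strains include all of the core set and of the first outlying set. Syngr3, a neuronal relative that binds the dopamine transporter, was at 0.33 ± 0.06, with BXD11 at 1.69. Syngr2, a form found outside neurons, was at −0.22 ± 0.04 with an eighth-place probe. Syp, or synaptophysin, the most used marker of synaptic vesicles, had a mean of −0.06 ± 0.05 that did not pass (limma adjusted p = 0.31). In the core arrays Syp was at −0.25 and passed (limma adjusted p = 0.00243), and it passed without the second outlying set at −0.15 (limma adjusted p = 0.0343). Syngr4 had a mean of 0.03 and did not pass.

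The 3 synapsins, phosphoproteins that bind vesicles to actin, all passed and differed in sign. Syn2 ran from −0.19 in BXD20 over 0.38 to 0.99 in BXD32, with a mean of 0.37 ± 0.06 (limma adjusted p = 4.55e-07). Syn3 ran from −1.33 in BXD5 over −0.60 to 0.06 in BXD2, with a mean of −0.56 ± 0.05 (limma adjusted p = 3.54e-11). Syn1 ran from −0.70 in BXD33 over −0.14 to 0.50 in BXD36, with a mean of −0.15 ± 0.05 (limma adjusted p = 0.00459). Syn3 was below 0 in 30 strains and Syn1 in 24, and the first outlying set averaged −0.02 for Syn2 against 0.55 in the core set.

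Both RIM genes, scaffolds that link vesicles to calcium channels at the active zone, had positive means. Rims2 ran from −0.09 in BXD32 over 0.28 to 0.90 in BXD11, with a mean of 0.26 ± 0.04 (limma adjusted p = 9.56e-07). Rims1 ran from −0.27 in BXD28 over 0.04 to 0.77 in BXD20, with a mean of 0.09 ± 0.04 (limma adjusted p = 0.043). Rims1 turned to −0.05 in the core arrays (limma adjusted p = 0.0756). Rims1 values of the second outlying set (0.121 to 0.372) all lay above those of the core arrays (−0.158 to 0.116), though by a narrow margin. Its call was lost with arrays centred on their median (0.07, limma adjusted p = 0.0833), without the first (0.03, limma adjusted p = 0.312) or the second outlying set (0.05, limma adjusted p = 0.407) and by the exact sign test (adjusted p = 0.752). Leaving out any one of BXD5, BXD6, BXD8, BXD15, BXD20, BXD22, BXD23, BXD27, BXD33, BXD34, BXD36, BXD38, BXD39, BXD40 or BXD42 also lost the call for Rims1, with means of 0.06 to 0.09 and limma adjusted p from 0.0524 to 0.0808. Snap91, or AP180, which assembles clathrin when vesicles are retrieved, ran from −0.80 in BXD14 over −0.12 to 0.30 in BXD6, with a mean of −0.13 ± 0.04 (limma adjusted p = 0.00544).

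The spread over strains was next compared among the genes. The median SD of the 60 genes was 0.278, close to the 0.276 of all features, and within array sets it was 0.232 against 0.219. Stx5a (0.990), Syt1 (0.679), Stx11 (0.602), Cplx2 (0.520), Stx7 (0.469) and Syt10 (0.462) had the largest SDs. Stx5a averaged 0.14 in the core set, 1.63 in the first and 1.13 in the second outlying set. Syt1 averaged 1.00, −0.25 and 0.50 in the same order. Stx7, by contrast to Stx5a, was lowest in the second outlying set (−1.34 against −0.68 in the core and −0.29 in the first). Stx11 and Syt10 had the largest SDs of these genes inside the core set (0.608 and 0.575). Cplx2 and Stx7 were also more spread there (0.430 and 0.353) than in either outlying set. Syt10 ran from −1.89 to −0.13 in the core set, from −1.12 to −0.86 in the first outlying set and from −1.68 to −1.51 in the second.

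**Figure D2:**
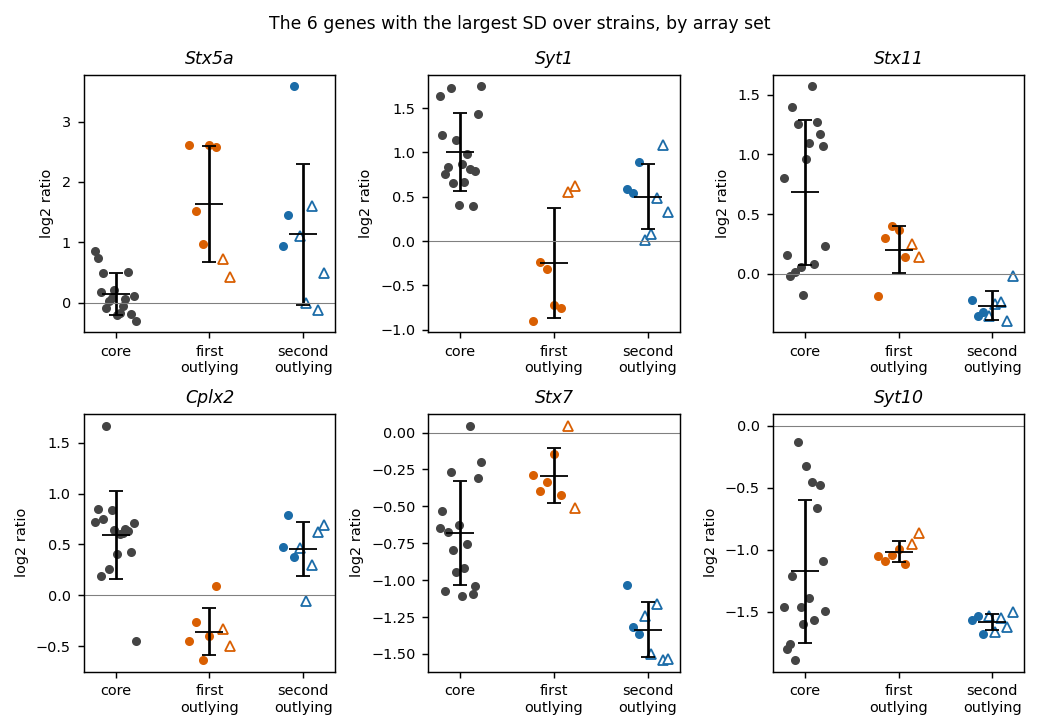
Log2 ratio (vertical axis) of the 6 genes with the largest SD over strains, by array set; each point is 1 strain, open triangles are later strains, and bars give the mean and SD of a set. Stx5a is high mainly in the outlying sets, Syt1 and Cplx2 average −0.25 and −0.36 in the first outlying set, and Stx11 and Syt10 are spread most widely in the core set.

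Complete separation of an outlying set from the core set was seen for few of the 60 genes. The first outlying set lay wholly above the core for Snap23, Stxbp5 and Syt13, which is 3 of 60 genes or 5%, against 4.18% of all features. For no gene did it lie wholly below, against 4.88% of features (9.06% in either direction). The second outlying set lay wholly, though narrowly, above the core for Rims1 and below for no gene, against 1.75% and 2.29% of features (4.04% in either direction). Of 7 measured neuron markers, a list that holds Snap25 and Syt1 themselves, the mean was 0.20 in the core set, −0.17 in the first outlying set and 0.09 in the second, and its range over arrays was −0.31 to 0.35. Among these markers Syt1 averaged 1.00 in the core set and −0.25 in the first outlying set, and Snap25 −0.09 and −0.37. In the same order the other markers were at 0.22 and 0.22 (Stmn2), −0.05 and −0.04 (Nefl), 0.06 and −0.03 (Eno2), 0.12 and −0.35 (Tubb3) and 0.12 and −0.38 (Map2). Syt1 thus enters the list mean set beside it. The part of the marker differences in the values of Syt1 and Cplx2 was not tested. Single arrays also stood out: BXD11 was the highest strain for 8 of the 60 genes (13.3%, against 4.01% of all features), among them Stx2, Vamp2, Cplx1, Cplx2, Syngr3 and Rims2. BXD32 was the lowest strain for 10 genes (16.7% against 6.36%), among them Stx4a, Snap23, Syt2 and Syp.

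**Figure D3:**
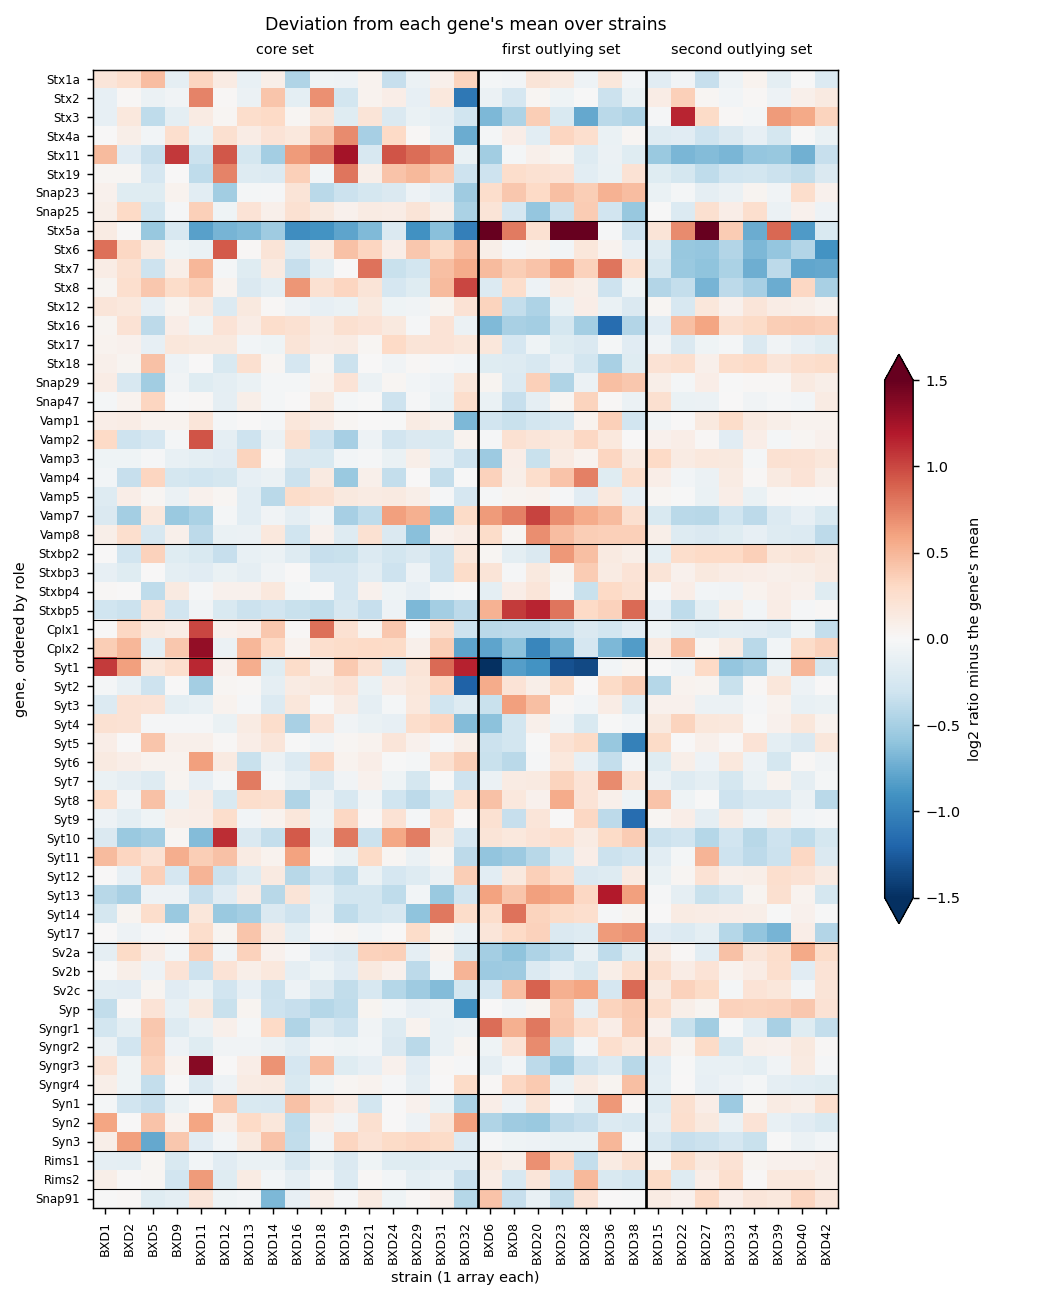
Deviation of each strain's log2 ratio from the gene's mean over strains (colour, clipped at ±1.5) for the 60 genes in rows by role and the 31 strains in columns by array set. The first outlying set is mostly blue for Syt1 and Cplx2 and red for Stxbp5, Vamp7 and Syt13, and single columns such as BXD11 and BXD32 stand out across several genes.

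The second comparison set the 7 later strains against the 24 earlier ones. The later strains lay only in the outlying sets (2 in the first and 5 in the second), so the array set was a term of the limma fit. At an adjusted p of 0.05, 0 of the 60 genes passed, as did 0% of all features, and 1551 features had an unadjusted p under 0.05. Among the 60 genes 6 had an unadjusted p under 0.05. In simulated data this fit recovered 2% of log2 shifts of 0.25 and 42% of shifts of 0.5. The simulated noise held no array sets and had each feature's SD over all arrays (median 0.276, against 0.219 within array sets). Recovery in the real data may thus differ, and differences of such a size could still be missed. For Stx5a the means were 0.60 in later and 0.77 in earlier strains, and with the array set in the fit the difference was −1.42 ± 0.32 (SE; unadjusted p = 0.00011, limma adjusted p = 0.253). Inside the first outlying set BXD36 and BXD38 held the 2 lowest values of Stx5a (0.72 and 0.43) while the 5 earlier strains ran from 0.97 to 2.61. In the second outlying set the 5 later strains ran from −0.12 to 1.60 and the 3 earlier ones from 0.93 to 3.58, so the ranges overlapped. Without the array set in the fit the difference of Stx5a was −0.17 (limma adjusted p = 0.846).

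Syt5 followed with a later-minus-earlier difference of −0.40 ± 0.11 (limma adjusted p = 0.413), and BXD38 and BXD36 were its lowest strains at −0.84 and −0.40. Inside the first outlying set the difference of Syt5 was −0.77 and inside the second −0.12. Syt9 differed by −0.35 (limma adjusted p = 0.519), with −0.84 inside the first outlying set, where BXD38 was lowest, and 0.017 inside the second, where the direction turned. Syt8 differed by −0.33 (limma adjusted p = 0.539), with −0.28 and −0.37 inside the sets. Sv2a and Syt13 differed by 0.25 and 0.24 (limma adjusted p = 0.619 and 0.679). Inside the first and the second outlying set the difference was 0.13 and 0.35 for Sv2a and 0.40 and 0.12 for Syt13. Leaving out BXD38 moved the difference to −0.25 for Syt5 and −0.13 for Syt9, and leaving out BXD36 moved it to 0.117 for Syt13. Without the array set in the fit, 102 features passed by limma (0.48%, with 0.24% in each direction), none of them among the 60 genes. In that fit 13 of the 60 genes had an unadjusted p under 0.05, as did 4301 of all 21262 features.

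Genes read by 2 probes allow the measurement itself to be compared. The 2 probes of Vamp1 had nearly the same mean (−0.09 each), and those of Rims1 had means of 0.17 ± 0.05 and 0.00 ± 0.04. For Syt11 the probe of AK018343 averaged 0.19 ± 0.04 and that of NM_018804 0.64 ± 0.11. For Syt6 the means had opposite signs, 0.49 ± 0.07 for AK019424 and −0.22 ± 0.05 for NM_018800, so its gene mean of 0.13 averaged 2 unlike probes. The Stxbp5 probe of AK002951 averaged −0.11 ± 0.05 and the eighth-place probe of AK019788 −0.32 ± 0.14, and the latter ran from −1.26 to 1.63. The positive values of Stxbp5 in the first outlying set came mainly from that probe. Within array sets, the correlation between probes over the 31 arrays was 0.478 for Vamp5, 0.379 for Rims1, 0.252 for Syt11, 0.245 for Vamp1, 0.227 for Syt6 and −0.05 for Stxbp5. Both probes of one gene share the array and the RNA, and may read different transcripts. Which of the 2 is nearer to the gene's own ratio was not tested.

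**Figure D4:**
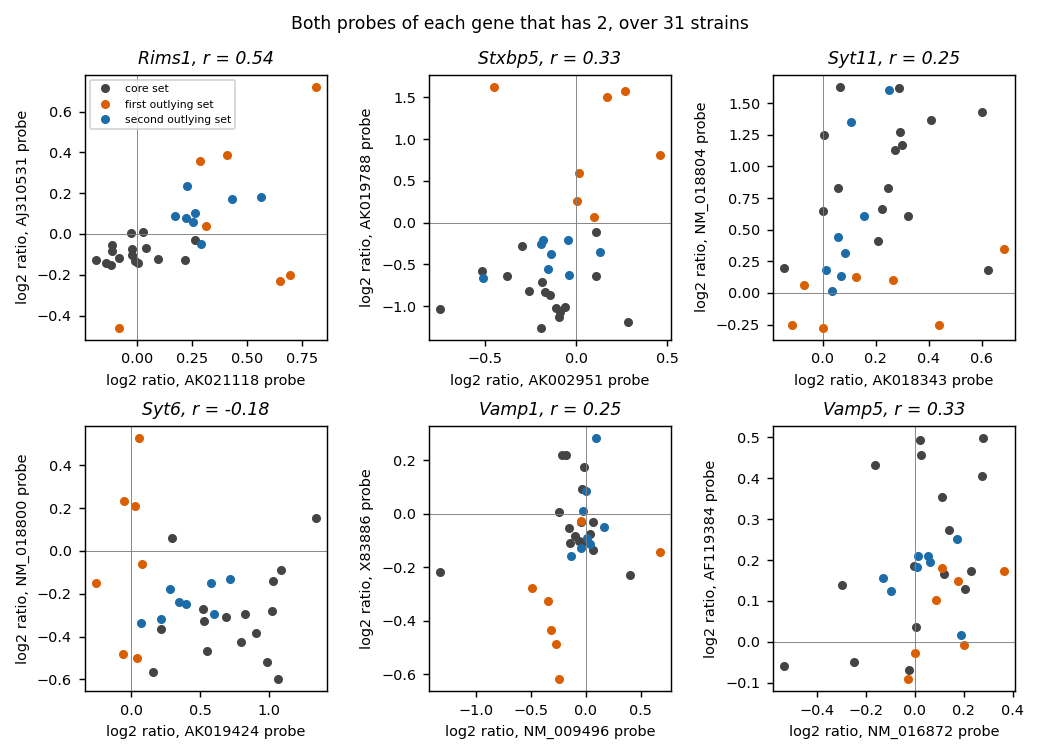
Log2 ratios of both probes (axes, named by the probe's accession) for the 6 genes read by 2 probes; each point is 1 strain, coloured by array set. The Syt6 probes differ in sign (means 0.49 and −0.22), and the Stxbp5 probe on the vertical axis separates the first outlying set from the core while the other does not.

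On average the genes did not move together as a group, though single pairs differed widely in both directions (SD over pairs 0.308). Over 1770 pairs the mean Pearson correlation across strains was 0.00236, and within array sets 0.00848, with 0.00046 over all pairs of features. The 238 pairs inside a role group averaged 0.000345 within array sets. Pairs that bind each other in cells are included in these counts, such as Stx1a, Snap25 and Vamp2. The highest and lowest correlations, given as descriptions over arrays that share one reference, were chosen after they were seen. The lowest within array sets were Stxbp3 with Syt2 (−0.67) and Stx12 with Syt3 (−0.66). In the core arrays Syt8 ran against Stx19 (−0.80), Syt10 (−0.79) and Stx11 (−0.73), which are described next.

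Within array sets the highest was Stx19 with Syt10, followed by Stx2 with Cplx1, whose probes have consecutive numbers, and then by Stx11 with Stx19 and Stx11 with Syt10. Stx1a with Syt12 had 0.663 within array sets and 0.799 in the core, and Cplx1 with Syngr3 0.687 and 0.765. For Cplx1 with Syngr3 it was 0.319 within array sets without BXD11 and BXD18, the 2 arrays farthest from the median of Cplx1. In the core it was 0.583 without BXD11 and BXD32, left out after seeing the data. Stx19, Stx11 and Syt10, on chromosomes 16, 10 and 15, were high in each of their 3 pairs. In the 16 core arrays r of Stx19 with Syt10, Stx11 with Stx19 and Stx11 with Syt10 was 0.894, 0.791 and 0.789, with Spearman's rho of 0.791, 0.735 and 0.806. Within array sets over all 31 arrays r was 0.833, 0.777 and 0.764, and without the 2 arrays farthest from the median of the first gene it was 0.754, 0.807 and 0.780. In the core set Stx11 fell into a low run of arrays (BXD14, BXD5, BXD11, BXD13, BXD21, BXD2 and BXD32, −0.18 to 0.23) and a high run (BXD1, BXD16, BXD31, BXD18, BXD29, BXD12, BXD24, BXD9 and BXD19, 0.80 to 1.57), with none between. Syt10 was highest in BXD12, BXD16, BXD19, BXD29 and BXD24 (−0.66 to −0.13), all of which lie in the high run of Stx11, while the other core arrays were at −1.09 or below. The 3 probes share the seventh place of their runs but are far apart in number (11783, 7943 and 10623). Those of Stx11 and Stx19 sit at the same place in their blocks of 480, where the mean correlation of all named probes within array sets was 0.0120. Whether any of this has a part in the correlation was not tested.

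Because these 3 genes moved together, the 250 bases before their start sites are shown, from RefSeq on GRCm38.p6 and read in the direction of transcription. Stx11 is on the minus strand at chr10:12964260-12964509, Stx19 on the plus strand at chr16:62814426-62814675 and Syt10 on the minus strand at chr15:89841861-89842110. Capitals mark matches on either strand to the motifs searched, which were TATAAA (the TATA box), GGGCGG (the GC box), TGACGTCA (the cyclic AMP response element), CACGTG (an E-box) and CCAAT (the CCAAT box).

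Stx11: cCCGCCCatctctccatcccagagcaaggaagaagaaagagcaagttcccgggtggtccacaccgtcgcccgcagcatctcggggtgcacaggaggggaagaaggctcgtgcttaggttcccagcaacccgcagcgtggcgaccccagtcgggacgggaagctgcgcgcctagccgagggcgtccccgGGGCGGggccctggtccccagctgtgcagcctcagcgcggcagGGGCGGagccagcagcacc
Stx19: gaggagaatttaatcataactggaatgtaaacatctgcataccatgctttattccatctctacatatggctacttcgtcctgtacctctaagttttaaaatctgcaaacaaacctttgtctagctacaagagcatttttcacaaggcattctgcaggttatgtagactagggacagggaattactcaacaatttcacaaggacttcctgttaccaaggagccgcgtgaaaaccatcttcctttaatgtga
Syt10: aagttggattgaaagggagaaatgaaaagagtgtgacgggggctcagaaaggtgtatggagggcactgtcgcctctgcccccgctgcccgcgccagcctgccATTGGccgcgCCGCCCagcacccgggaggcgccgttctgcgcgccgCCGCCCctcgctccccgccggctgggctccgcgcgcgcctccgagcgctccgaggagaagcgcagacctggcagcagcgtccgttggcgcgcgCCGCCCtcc

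Matches differed among the 3 stretches. Stx11 (70% G and C) holds 3 GC boxes. Stx19 (39.2%) holds no match to any of the 5 motifs. Syt10 (72%) holds 3 GC boxes and 1 CCAAT box. Promoters were matched for 46 of the 60 genes, with 61 start sites. GGGCGG was in 59.0% of these and in 32.7% of all 32851 promoters of the same length, CCAAT in 26.2% and 33.9%, TATAAA in 6.56% and 12.4%, CACGTG in 11.5% and 6.02%, and TGACGTCA in 3.28% and 1.55%. The median G and C content was 60.4% for the 61 promoters and 52.4% for all, and the GC box contains only these letters.

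**Figure D5:**
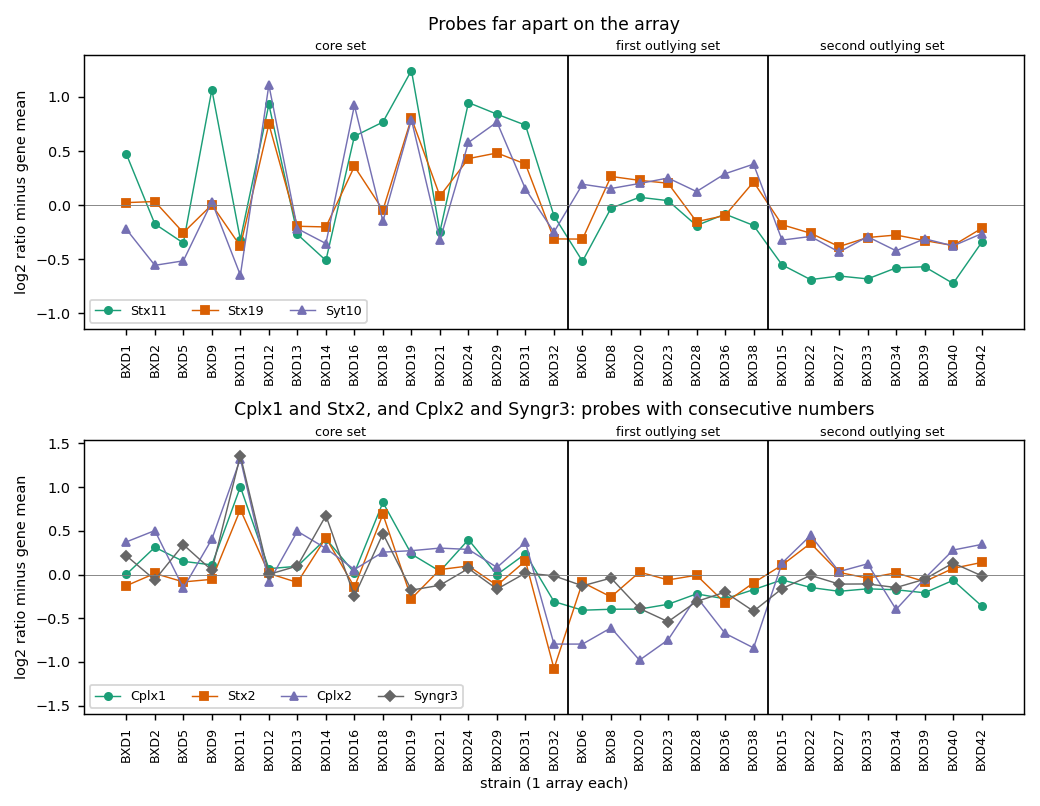
Log2 ratio minus the gene's mean (vertical axis) for each strain (horizontal axis, by array set), above for Stx11, Stx19 and Syt10 and below for Cplx1, Stx2, Cplx2 and Syngr3; lines join the points of a gene only to guide the eye. The 3 genes above rise in the same core arrays, and the 4 below share the high value of BXD11.

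The complexins moved together as well, less firmly. In the core arrays the r of Cplx1 with Cplx2 was 0.726 with a rho of 0.418. Without BXD11 and BXD32, left out after seeing the data, it was 0.195 over 14 arrays, so the core value rests on those arrays. Over all 31 arrays r was 0.730 with a rho of 0.688, and within array sets r was 0.634. Without BXD11 and BXD18, the 2 arrays farthest from the median of Cplx1, r was 0.695 over all arrays and 0.533 within array sets. Both complexin probes have a neighbour in number among the 60 genes, and both sit at place 133 of their blocks. The neighbours, Stx2 and Syngr3, both sit at place 134. The mean correlation of all named probes within array sets was 0.0121 at place 133 and 0.0159 at place 134. Whether the shared places have a part in the correlations of these genes was not tested. Cplx1 and Stx2 (probes 9253 and 9254) had r = 0.819 within array sets and 0.883 in the core, where it was 0.837 without BXD11 and BXD32. Cplx2 and Syngr3 (probes 5413 and 5414) had 0.531 within array sets and 0.0189 in the core without those arrays.

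In all 8 pairs of probes described here had consecutive numbers. The other 6 gave, within array sets, 0.642 for Syt9 with Syt5, 0.206 for Syngr1 with Syngr2, 0.181 for Syt1 with Syt11, 0.136 for Vamp5 with Vamp1, 0.0647 for Syt7 with Stx7 and −0.40 for Stx1a with Stx4a. The value for Syt9 with Syt5 rested on BXD36 and BXD38: over all arrays it was 0.692, and 0.0616 without them. Over 13324 pairs of named probes 1 apart in number, the median r within array sets was 0.110, and 7.54% of them exceeded 0.5. Pairs 8 apart had a median of 0.0216 and 3.76% over 0.5. Consecutive numbers thus went with somewhat higher correlation across the whole array, and their part in the pairs named here was not tested. Among eighth-place probes, those of Stx7 and Stx8 share place 96 of their blocks, and those of Stxbp2 and Stxbp3 place 72. The mean correlation of all named probes within array sets was 0.186 at place 96 and 0.126 at place 72. The median over block places was 0.0205. The part of these places in the values of the genes was not tested. Sv2a and Syp, whose probes are not consecutive, had r = 0.669 within array sets and 0.784 in the core.

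Genes that work beside these proteins were counted from lists chosen by function. Of 12 measured genes of priming and of the NSF cycle, which recycles spent SNAREs, 9 were positive, 2 negative and 1 did not pass. The largest were Cadps, a priming factor of dense-core vesicles, at −1.13 ± 0.10, and Unc13a, the main priming factor of excitatory synapses, at −0.62 ± 0.07, both with an eighth-place probe. Of 8 active zone scaffold genes 3 were positive and 5 negative, led by Cask at −0.70 ± 0.04 and Bsn, or bassoon, at −0.61 ± 0.05. Of 4 vesicle transmitter transporters 2 were positive, 1 negative and 1 did not pass, with Slc17a6, a glutamate transporter, at −0.40 and Slc18a3, the acetylcholine transporter, at 0.26. Of 17 genes of vesicle endocytosis 7 were positive, 6 negative and 4 did not pass, with Ap2b1 at 0.59 and Clta, a clathrin light chain, at −0.48. Of 26 further vesicle proteins 11 were positive, 11 negative and 4 did not pass, with the SNARE Ykt6 at −1.0 and Sytl2 at −0.91. By limma and at the same threshold, 42.1% of all features were positive and 33.9% negative.

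Markers of the cell types in whole brain were read the same way. Of the neuron markers 2 of 7 were positive and 2 negative, of the astrocyte markers 2 of 8 and 3, and of the microglia markers 2 of 7 and 3. Of 7 oligodendrocyte markers 6 were positive and 0 negative by limma (range of the list mean over arrays −0.05 to 0.61), and of 6 endothelium markers 5 were positive and 1 negative (−0.04 to 0.52). Of 7 pituitary markers 2 were positive and 1 negative (−0.37 to 1.24). The part of these differences in the values of the 60 genes was not tested.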

How the data were processed

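Log ratios of 31 arrays, 1 per strain, were deposited in 1 table of 23040 spots with 0 missing values. The deposited values are log2 ratios by the best reading: neither log base nor direction is stated. R 2.0.0 and limma are named, with no role, per the submitters' processing notes. Background handling, normalisation steps and filtering were not given in the sources used here. After sorting, the columns were identical (largest difference 0), so any shift of a whole array is lost. Intensities were not used here, so dim and saturated probes could not be set apart, and the number of arrays limits the precision.

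Probes of a gene were averaged, giving 15096 named genes and 6166 spots without a single symbol. All 66 probes of the 60 genes kept their symbol in RefSeq (GRCm38.p6), and the accession of 40 is among that gene's RefSeq transcripts. Means were tested against 0, and later against earlier strains with array set (components scored above 0.2) as a factor, with limma 3.58.1 in R 4.3.3, two-sided, with Benjamini-Hochberg adjustment over all 21262 features. Python 3.11.15 was used for the rest. Both fits were tested on simulated data with the SDs of these features, no array sets and log2 shifts of 0.25, 0.5, 0.75 and 1. The fit against 0 recovered 68%, 100%, 100% and 100% of the shifted features. The later-against-earlier fit recovered 2%, 42%, 60% and 80%.

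By the naming rule, in each role group the 2 highest and 2 lowest passing means, the 6 largest SDs, every gene with 2 probes and 2 genes of each companion list were named; correlated pairs and the arrays singled out were picked with their values in view. The genes, lists, sets and tests were chosen with earlier results of these data known. Unc13c was matched through a RefSeq synonym. Alternatives were array centring, leaving out array sets or single strains, a 1.2-fold threshold, an exact sign test, leaving out eighth-place probes, single probes, no array set in the fit and Spearman's rho.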

Additional observations from a re-analysis of the deposited data

Results flagged for a closer look

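In the 7 later strains, each of the 60 genes was checked for a single strain far from the other 6, by its gap to the nearest strain relative to the whole range (Dixon's 95% value). Chance flags about 1 in 20 such groups if their arrays are alike, but these strains came from both outlying sets. The check was not run over all features, so the number flagged cannot be read as a trait of these genes. Of the 60 genes 10 had such a strain, and 5 of these were BXD38 and 2 BXD36, both arrays of the first outlying set, to which no other later strain belongs.

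BXD38 was lowest for Syt9 at −1.05, with the others between −0.30 and 0.20. BXD38 was highest for Stxbp5 at 0.64 (others −0.26 to 0.13), for Sv2c at 0.62 (others −0.48 to −0.03), for Syngr4 at 0.48 (others −0.15 to 0.07) and for Stxbp3 at −0.10 (others −0.22 to −0.17). BXD36 was highest for Syn3 at −0.055 (others −0.89 to −0.56) and lowest for Syt12 at −0.076 (others 0.20 to 0.36). BXD40 was highest for Syt11 at 0.73 (others 0.03 to 0.20), BXD34 highest for Syn2 at 0.58 (others 0.13 to 0.29) and BXD42 lowest for Syp at 0.16 (others 0.27 to 0.34).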

How the results depend on the processing

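Of the 60 genes 51 passed against 0 by limma, and with single strains left out in turn the number was 49 to 51. Against 1.2-fold 19 passed, and the other alternatives gave 44 to 54 (the latter over 66 single probes). No gene passed between later and earlier strains by limma under any alternative run, single strains left out included (0 to 0), with 6 at an unadjusted p under 0.05. The median SD lay between 0.225 and 0.280 and the mean correlation between −0.0024 and 0.0123. Signs of gene means turned only for genes near 0 that did not pass, apart from Rims1, which turned to −0.051 in core arrays. Genes with 2 probes were left out of this check for single probes. Among them Syt6, which passed, had probe means of 0.49 and −0.22, so its sign depends on the probe. Stx3 turned to −0.029 without the second outlying set. Vamp3 turned to −0.0066 with arrays centred, −0.051 without the second outlying set and −0.067 in core arrays, and to −0.0051, −0.0037, −0.0046, −0.0016 and −0.0012 without BXD13, BXD15, BXD36, BXD39 or BXD40 (range over all strains left out −0.0051 to 0.024). Syt4 turned to 0.034 without the first outlying set, and to 0.0065, 0.0019 and 0.0077 without BXD6, BXD16 or BXD32 (range −0.025 to 0.0077). Syngr4 turned to −0.026 without the first outlying set. The later-minus-earlier difference of Syt9 was 0.017 inside the second outlying set. The cause was not tested. No paired analysis was possible because the 2 groups share no replicate number. The array sets were read from the same data, and no signal over background limits could be given.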
